A study of Mus musculus with 24 samples.

Results

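The voltage-gated sodium channel genes described here are 8 rows of a table of 55418 genes counted in mouse lumbar spinal cord. They were picked by gene symbol and comprise 5 pore-forming alpha subunits (Scn1a, Scn2a, Scn3a, Scn8a and Scn9a) and 3 auxiliary beta subunits (Scn2b, Scn3b and Scn4b). All 8 passed the filter on low counts, which kept 25372 genes. The study set Chrna7-cKO mice, in which the gene for the alpha7 nicotinic acetylcholine receptor is knocked out in myeloid cells, against wild-type (WT) mice. Mice of both genotypes received paclitaxel or its vehicle, a mixture of Kolliphor, ethanol and water. Paclitaxel, a microtubule-stabilising cancer drug known for causing neuropathic pain, was given at 1 mg/kg in 4 injections. RNA was taken from segments L4 to L6 on day 7 after the first injection. The labels give the strain as C57BL/6J and the age as 8 to 10 weeks, and they name neither the Cre driver nor the deleted exons. The 8 groups were Chrna7-cKO paclitaxel, Chrna7-cKO vehicle, WT paclitaxel and WT vehicle, each in males and in females, with 3 mice and 3 libraries in each group.

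A voltage-gated sodium channel consists of 1 alpha subunit, which forms the sodium-selective pore and opens when the membrane depolarises, together with beta subunits that alter its gating and its place in the membrane. The current through these channels drives the upstroke of the action potential. Scn1a encodes Nav1.1, a main channel of fast-spiking inhibitory neurons and of motor neurons, Scn2a encodes Nav1.2, Scn3a encodes Nav1.3, known for its high level in the embryo, and Scn8a encodes Nav1.6, the main channel of mature nodes of Ranvier. Scn9a encodes Nav1.7, best known from the sensory neurons of the dorsal root ganglion and from inherited loss of pain in humans. The beta2 subunit (Scn2b) and the beta4 subunit (Scn4b) are linked to alpha subunits by a disulfide bond, while the beta3 subunit (Scn3b) binds without one.

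The alpha subunits are related in sequence, and a short coding stretch shows a codon that separates them from Scn10a and Scn11a. It lies in the pore loop of the first of the 4 repeated domains, where 1 codon sets how strongly tetrodotoxin blocks the channel. An aromatic residue there goes with a channel that the toxin blocks at low concentration, and a serine goes with a resistant one. The capitals mark that codon, the residue it encodes stands beside each name, and the stretches are read from the coding strand of the GENCODE annotation of GRCm38.
Scn2a, phenylalanine, chr2:65688415-65688459, plus strand: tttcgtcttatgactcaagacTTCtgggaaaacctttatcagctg
Scn3a, tyrosine, chr2:65521792-65521836, minus strand: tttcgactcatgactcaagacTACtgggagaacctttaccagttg
Scn8a, tyrosine, chr15:100971617-100971661, plus strand: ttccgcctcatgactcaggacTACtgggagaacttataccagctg
Scn9a, tyrosine, chr2:66548980-66549024, minus strand: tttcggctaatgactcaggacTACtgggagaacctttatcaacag
Scn10a, serine, chr9:119666366-119666410, minus strand: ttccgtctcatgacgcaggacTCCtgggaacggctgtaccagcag
Scn11a, serine, chr9:119805659-119805703, minus strand: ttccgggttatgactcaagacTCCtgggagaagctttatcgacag
The 4 members shown carried an aromatic codon, while the 2 sensory neuron channels Scn10a (Nav1.8) and Scn11a (Nav1.9), shown for contrast, carried a serine codon. The stretch lies within 1 exon in each of these genes, exon 9 of 27 in Scn8a. Over the whole coding sequence, pairs of alpha members were 70.2 to 83.6% identical, and the longest run of identical bases ranged from 35 (Scn8a and Scn9a) to 188 (Scn1a and Scn2a). A read that falls wholly within such a run matches both genes, so counts of the alpha members may miss or misplace such reads. On GRCm38, Scn1a spans chr2:66270778-66440840 on the minus strand with 11146 exonic bases, and Scn8a spans chr15:100869858-101045938 on the plus strand with 15766. Scn3a, Scn2a, Scn1a and Scn9a lie in 1 cluster of 1177845 bases on chromosome 2, with Scn8a on chromosome 15. All 3 beta members lie on chromosome 9, where Scn2b ends 8324 bases before Scn4b begins on the same strand.

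Total counts ranged from 88812295 to 112158154 per library. WT female paclitaxel replicate 3 stood apart from the other 23 libraries. The summed level of 12 marker genes of dorsal root ganglion neurons was 4826 CPM (counts scaled to a common library total) there, against 46.6 to 84.67 CPM in the other 23. Its 6 astrocyte markers summed to 234.6 CPM, against 5105 to 6124 CPM in the others. The channel comparisons therefore rest on the other 23 libraries, called cords below, and the WT female paclitaxel group then holds 2. Chrna7 itself had 9.053 to 14.34 CPM in 12 Chrna7-cKO cords and 9.519 to 15.8 CPM in 11 WT cords, and its difference was not called by edgeR's quasi-likelihood test (log2 fold change -0.11, SE 0.06, adjusted p = 1). The counts cover the whole gene, and which part was deleted is not named. Lyz2, the myeloid lysozyme gene, was lower in Chrna7-cKO than in WT cords (log2 fold change -1.06, SE 0.13, edgeR adjusted p = 0.00752). Of 6 microglia markers, 0 were called in this comparison (median log2 fold change -0.0355), where 0.0118% of all tested genes were called. In bulk tissue, fewer cells of a type, less RNA per cell and an altered Lyz2 gene cannot be told apart, and the Cre driver is not named.

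Scn4b was the most abundant member per unit of exon length and Scn9a the least. The levels compared between genes are RPKM, the CPM divided by the exon length in kilobases, as mean ± SD over 23 cords. Scn4b averaged 149.1 ± 8.042 RPKM, Scn1a 46.23 ± 4.051, Scn2b 29.52 ± 2.245 and Scn8a 28.37 ± 1.756 RPKM. Scn2a averaged 7.884 ± 0.7075 RPKM, Scn3b 6.759 ± 0.646, Scn3a 2.704 ± 0.3166 and Scn9a 1.186 ± 0.1655 RPKM. Among neighbours in that order, the ranges over cords did not overlap between Scn4b and Scn1a, Scn1a and Scn2b, Scn8a and Scn2a, Scn3b and Scn3a, or Scn3a and Scn9a. They overlapped between Scn2b and Scn8a, where Scn2b was higher in 15 of 23 cords, and between Scn2a and Scn3b, although Scn2a was higher within each of the 23.

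**Figure D1:**
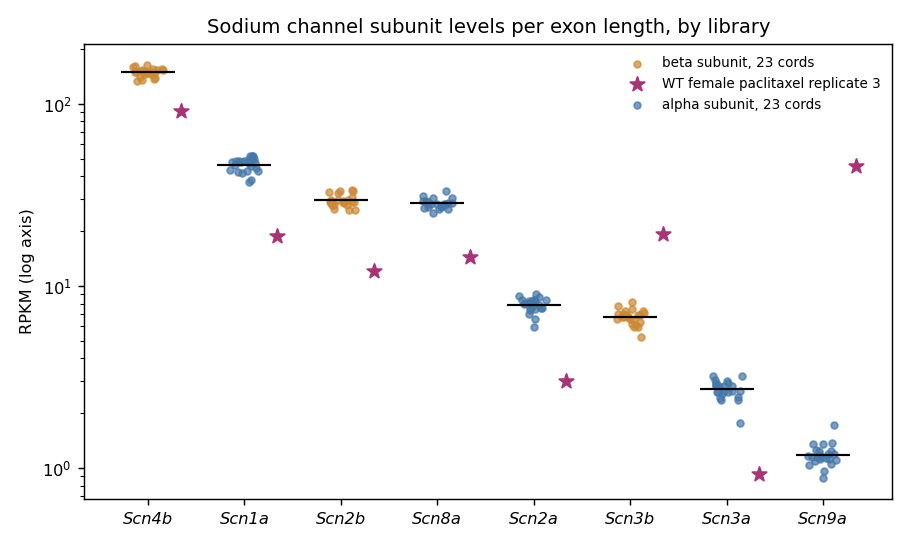
Level of each channel gene in RPKM on a log axis, with 1 point per cord, a line at the mean of 23 cords, and a star for WT female paclitaxel replicate 3. Scn4b lies highest at a mean of 149.1 RPKM and Scn9a lowest at 1.186 RPKM in the cords, and the star lies above the cords for Scn9a and Scn3b and below them for the other members.

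Within a gene the cords were close to each other. In CPM over 23 cords, Scn4b ranged from 663.9 to 816.4 (mean 742.8 ± 40.06 SD), Scn1a from 415.9 to 575.4 (515.2 ± 45.16), Scn8a from 396.9 to 524.8 (447.4 ± 27.69) and Scn2b from 121 to 157 (137.4 ± 10.45). Scn2a averaged 100.4 ± 9.008 CPM, Scn3b 36.91 ± 3.528, Scn3a 33.68 ± 3.944 and Scn9a 15.14 ± 2.114 CPM (SD, n = 23). Relative to its mean, Scn4b varied least of the 8 and Scn9a most.

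The 5 alpha members together were made up mostly of Scn1a and Scn8a. Of their summed RPKM, Scn1a held 53.44%, Scn8a 32.94%, Scn2a 9.121%, Scn3a 3.13% and Scn9a 1.375% on average over 23 cords. Of the summed RPKM of the 3 beta members, Scn4b held 80.42%, Scn2b 15.93% and Scn3b 3.653%. The order of these mean shares was the same in each of the 4 combinations of genotype and treatment.

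**Figure D2:**
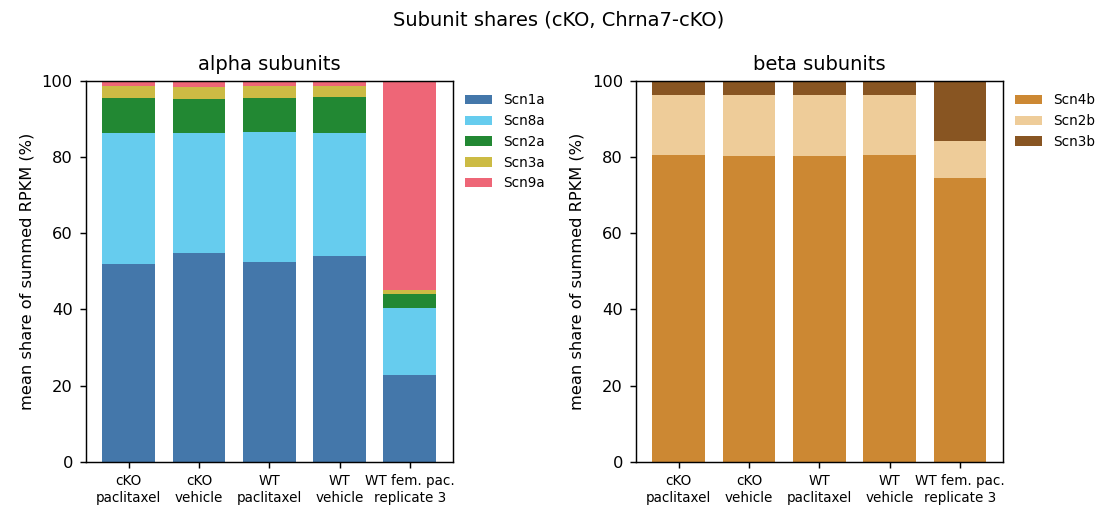
Mean share of each subunit in the summed RPKM of the 5 alpha members and of the 3 beta members, in percent, for 6 Chrna7-cKO paclitaxel, 6 Chrna7-cKO vehicle, 5 WT paclitaxel and 6 WT vehicle cords and for WT female paclitaxel replicate 3 alone. Scn1a and Scn4b are the largest parts in the 4 cord groups, while Scn9a takes 54.87% of the alpha sum in the single library.

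In the library that stood apart, Scn9a and Scn3b lay above every cord and the other 6 members below every cord. Scn9a reached 579.1 CPM in that library, against 11.23 to 22.02 CPM in the cords, which was 39.3 times the cords' median. Scn3b had 105 CPM there, against 28.52 to 44.52 CPM in the cords. Scn1a had 210.1 CPM in the library that stood apart, Scn8a 228.6, Scn4b 456.5, Scn2b 56.32, Scn2a 38.51 and Scn3a 11.54 CPM. The sensory neuron channel Scn10a had 772 CPM there, against 0 to 0.728 CPM in the cords. Scn11a had 384 CPM there, against 0.04468 to 0.416 CPM in the cords. Scn10a and Scn11a are both among the dorsal root ganglion markers summed above, so their levels are not separate evidence about this library. With a single library there is no test, and its values come from its library total without a scaling factor. Of these 8 genes, chosen as central channels, Scn9a and Scn3b were therefore higher in the library with high ganglion markers than in any cord.

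The question of the treatment arm is whether channel transcripts in the cord differ after paclitaxel. Scn1a was the member with the largest fitted difference. Its level was 415.9 to 558.3 CPM with a median of 475.2 in 11 paclitaxel cords, against 505.2 to 575.4 CPM with a median of 541 in 12 vehicle cords. The groups overlapped, but 8 of the 11 paclitaxel cords lay below every vehicle cord, which held for 0.244% of tested genes at 8 or more cords. The fitted log2 fold change was -0.16 (SE 0.03, 95% interval -0.23 to -0.09), which is 0.8956 times the vehicle level, with an unadjusted p of 3.93e-05 that ranked 8 of 25372 and an edgeR adjusted p of 0.108.

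No member was called for paclitaxel over all cords by edgeR at an adjusted p under 0.05, where 5 of all tested genes (0.0197%) were called. At an unadjusted p under 0.05, 2 members were lower (Scn1a and Scn2a) and 0 were higher, against 5.75% of all tested genes lower and 4.43% higher. DESeq2 called 1 member, Scn1a (adjusted p = 0.00382), and 158 genes in all. By edgeR Scn1a was also called without the filter on low counts (adjusted p = 3.89e-05), where more genes were called in all than with it. With the filter, edgeR called Scn1a when WT male paclitaxel replicate 1 (0.0494), Chrna7-cKO male vehicle replicate 1 (0.0229) or Chrna7-cKO female paclitaxel replicate 2 (0.0468) was left out. Scn2a had 75.74 to 110.3 CPM with a median of 96.48 in paclitaxel cords, against 95.89 to 114.2 CPM with a median of 105.4 in vehicle cords (log2 fold change -0.12, SE 0.05, edgeR adjusted p = 0.421). Its groups overlapped, and 5 of 11 paclitaxel cords lay below every vehicle cord. The fitted log2 fold changes of all 8 members were negative, with a median of -0.0546, beside a median of 0.00611 over all tested genes. They were -0.0815 for Scn3a, -0.0784 for Scn9a, -0.0309 for Scn3b, -0.0259 for Scn8a, -0.0218 for Scn4b and -0.00127 for Scn2b, each with a 95% interval that includes 0. The widest of these intervals, that of Scn3a, ran from -0.21 to 0.05 on the log2 scale.

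The median paclitaxel fold change differed between classes of exon length per gene. Among genes with more than 10000 exonic bases, to which all 5 alpha members belong, the median log2 fold change was -0.0354 (1468 genes with enough reads), while among genes of at most 1000 bases it was 0.0379 (540 genes). The part of this pattern in the Scn1a difference was not tested. The summed CPM of 13 general neuron markers was 11290 to 13700 in paclitaxel cords, against 10870 to 12690 in vehicle cords, and overlapped. The summed CPM of 6 endothelial markers was 158.9 to 283.9 in paclitaxel cords, against 106.8 to 207.9 in vehicle cords, and overlapped as well.

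Within each genotype Scn1a had the lowest log2 fold change of the members, and no member was called by edgeR. In Chrna7-cKO cords, Scn1a was at 415.9 to 525 CPM under paclitaxel (median 475, n = 6), against 505.2 to 575.4 CPM under vehicle (median 537.9, n = 6). Of the 6 paclitaxel cords, 5 lay below every vehicle cord, which held for 1.38% of tested genes at 5 or more. The log2 fold change was -0.18 (SE 0.04, edgeR adjusted p = 0.185), in a comparison where 6 genes (0.0236%) were called. DESeq2 called Scn1a there (adjusted p = 0.0338), and so did edgeR without Chrna7-cKO male vehicle replicate 1 (adjusted p = 0.0243). Scn9a was at -0.18 on the same log2 scale (SE 0.08, adjusted p = 0.401 by edgeR). Scn1a and Scn9a were the 2 members with an unadjusted p under 0.05 there, against 11.3% of tested genes, and Scn8a and the 3 beta members had positive values of at most 0.0323.

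In WT cords, Scn1a was at 426.8 to 558.3 CPM under paclitaxel (median 475.2, n = 5), against 534.3 to 574 CPM under vehicle (median 543.4, n = 6). Of the 5 paclitaxel cords, 4 lay below every vehicle cord, which held for 2.16% of tested genes at 4 or more. The log2 fold change was -0.13 (SE 0.05, edgeR adjusted p = 0.528), and 0 genes (0%) were called in WT by edgeR, with 2021 (7.97%), Scn1a among them, at an unadjusted p under 0.05 and 4 called by DESeq2. Scn2a had -0.13 in WT (SE 0.07, edgeR adjusted p = 0.657). The paclitaxel response in Chrna7-cKO minus that in WT was -0.05 for Scn1a (95% interval -0.19 to 0.08, edgeR adjusted p = 0.854), and over the 8 members it ranged from -0.21 for Scn9a to 0.13 for Scn3b. None of these was called by edgeR (lowest adjusted p 0.634), nor was any tested gene (0%), with 2134 genes (8.41%) but 0 members at an unadjusted p under 0.05, and DESeq2 called 0 genes as well.

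**Figure D3:**
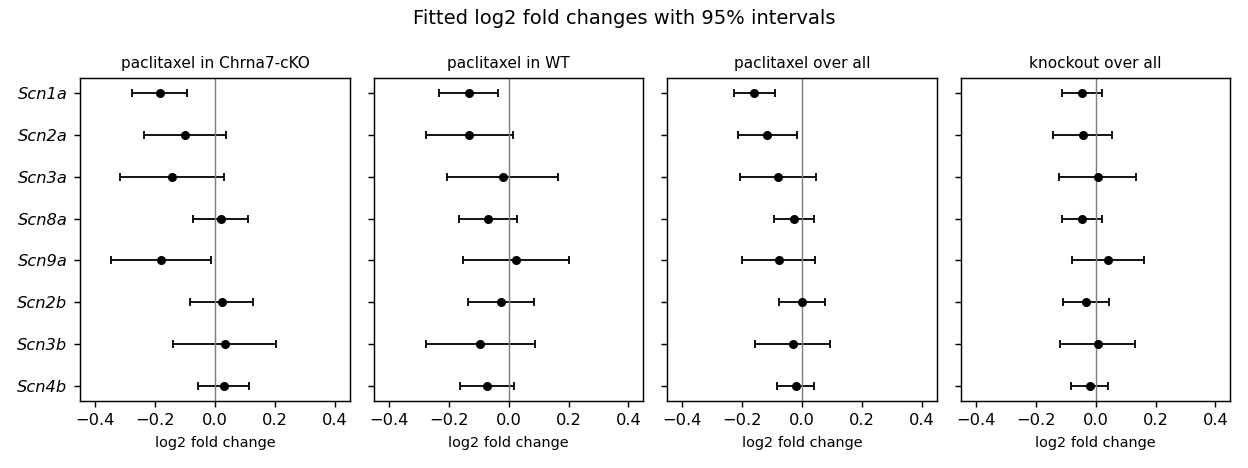
Fitted log2 fold change of each member with its 95% interval, for paclitaxel against vehicle in Chrna7-cKO, in WT and over all cords, and for Chrna7-cKO against WT over all cords. The interval of Scn1a lies below 0 in the 3 paclitaxel panels, and all 8 intervals of the knockout panel include 0.

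Within males, Scn1a was lower in paclitaxel than in vehicle cords in both genotypes. The comparisons within each sex were added after the levels had been seen. By the library numbers in the labels, male paclitaxel and female vehicle cords are libraries 1 to 12, and male vehicle and female paclitaxel cords are libraries 13 to 24. The labels name no batch, but within a sex, and in the comparison of the response between the sexes, treatment and this split of the library numbers cannot be told apart. Scn1a had 497.6, 481.1 and 415.9 CPM in Chrna7-cKO male paclitaxel cords, against 505.2, 574.8 and 575.4 CPM in Chrna7-cKO male vehicle cords. It had 473.6, 426.8 and 475.2 CPM in WT male paclitaxel cords, against 545, 541.8 and 553.6 CPM in WT male vehicle cords. All 6 male paclitaxel cords therefore lay below all 6 male vehicle cords. A separation in that direction held for 1.41% of tested genes. Scn1a averaged 461.7 ± 32.59 CPM in male paclitaxel cords and 549.3 ± 25.93 CPM in male vehicle cords (SD, n = 6 each). The log2 fold change was -0.25 (SE 0.04, 0.8405 times the vehicle level, edgeR adjusted p = 0.00519), and Scn1a fell in males by this test. The call held when any 1 of the 23 cords was left out (adjusted p 0.000396 to 0.0267) and was lost when WT female paclitaxel replicate 3 was put into the fit (log2 fold change -0.25, adjusted p = 0.62).

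It was the only member of the 8 called in males, where 1698 of the tested genes (6.69%) were called, 918 of them lower (3.62%). Scn9a (-0.20, SE 0.08, adjusted p = 0.144), Scn3a (-0.19, SE 0.08, adjusted p = 0.202) and Scn2a (-0.14, SE 0.07, adjusted p = 0.218) had negative edgeR log2 fold changes in males that missed the threshold. Without the filter on low counts, Scn9a, Scn3a and Scn2a were called as well. That setting called more genes than the filtered fit in every other comparison, and its total in males is not reported here. With Scn1a, 4 members were lower at an unadjusted p under 0.05, against 10.3% of tested genes. Scn8a had 425.6 to 480.3 CPM with a median of 455.7 in male paclitaxel cords, against 396.9 to 491.7 CPM with a median of 444 in male vehicle cords, and overlapped fully. Its log2 fold change was 0.03 with a 95% interval from -0.06 to 0.12. The fitted values of the beta members in males were 0.10 for Scn2b (SE 0.05, adjusted p = 0.267 by edgeR), 0.02 for Scn3b and -0.00426 for Scn4b.

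In females, Scn1a had 469, 525 and 466.8 CPM in Chrna7-cKO paclitaxel cords, against 540.2, 535.6 and 514.1 CPM in Chrna7-cKO vehicle cords. It had 558.3 and 529.4 CPM in WT female paclitaxel cords, against 538.1, 574 and 534.3 CPM in WT female vehicle cords. The female groups overlapped (log2 fold change -0.07, SE 0.05, adjusted p = 0.686 by edgeR). In females 0 members and 1 gene (0.00394%) were called by edgeR, and 0 members had an unadjusted p under 0.05, against 9.37% of tested genes. Member log2 fold changes in females ran from -0.103 (Scn2b) to 0.043 (Scn9a).

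The difference between the sexes was tested itself, in a contrast that coincides with the split of library numbers given above. The paclitaxel response in males minus that in females was -0.18 for Scn1a (SE 0.07, 95% interval -0.32 to -0.05), with an edgeR adjusted p of 0.0978, so it was not called. Without Chrna7-cKO male vehicle replicate 1 it was called (-0.21, adjusted p = 0.0323). With all 23 cords no member was called by edgeR or DESeq2 in this comparison, in which edgeR called 1259 genes (4.96%). Scn1a, Scn2b and Scn9a had an unadjusted p under 0.05, against 20.3% of tested genes. Scn2b had the opposite sign, 0.20 (SE 0.07, edgeR adjusted p = 0.11), with 122.9 to 157 CPM in male paclitaxel and 121 to 137.9 CPM in male vehicle cords, and 133 to 138.4 CPM in female paclitaxel and 129.7 to 154.6 CPM in female vehicle cords. Between males and females over both treatments, 0 members were called among 233 genes (0.918%), and Scn9a had the lowest unadjusted p of the members (log2 fold change 0.12, SE 0.06, edgeR adjusted p = 0.366).

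**Figure D4:**
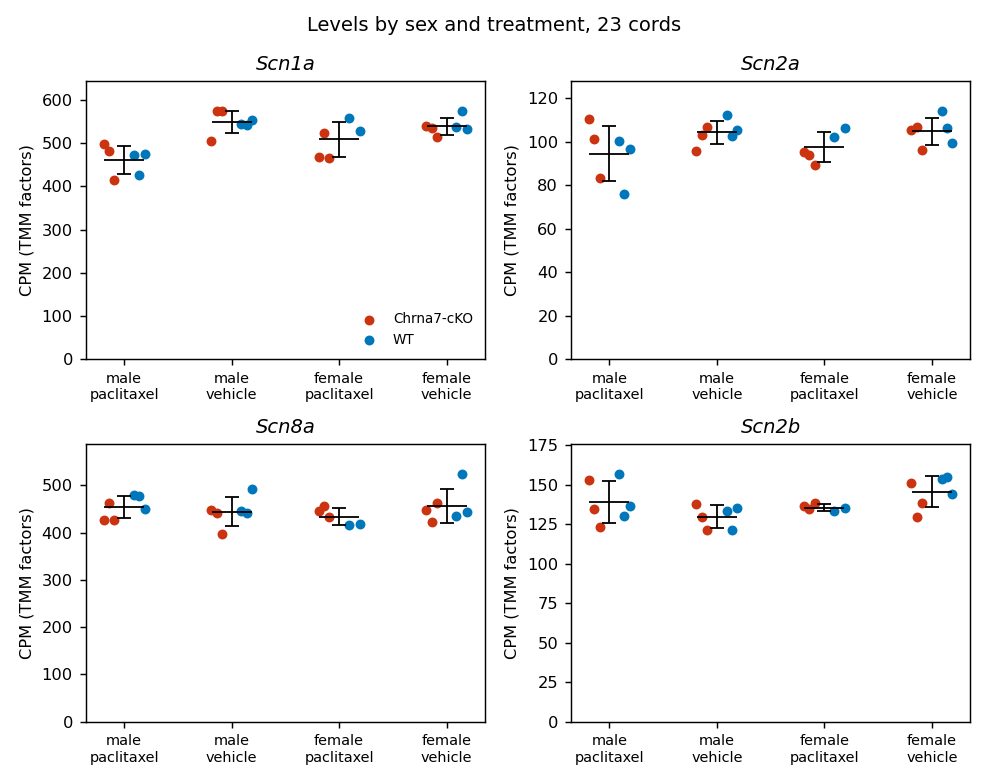
CPM of Scn1a, Scn2a, Scn8a and Scn2b in male paclitaxel, male vehicle, female paclitaxel and female vehicle cords, with 1 point per cord coloured by genotype and bars at mean ± SD. The male paclitaxel points of Scn1a lie at 415.9 to 497.6 CPM, below the male vehicle points at 505.2 to 575.4 CPM, while the points of the other 3 genes overlap between treatments.

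Other measures also separated or shifted in the male cords. The summed CPM of 6 endothelial markers was 184.2 to 211.4 in male paclitaxel cords, against 106.8 to 164.4 in male vehicle cords, and did not overlap. Of 13 general neuron markers, 4 were called higher in male paclitaxel cords (Tubb3, Syn1, Rbfox3 and Eno2) and 1 lower (Elavl2), with a median log2 fold change of 0.131, where 3.07% of all tested genes were called higher and 3.62% lower. Genes of more than 10000 exonic bases had a median of -0.0552 in males and -0.0198 in females. The summed CPM of 9 inhibitory neuron markers was 1553 to 1832 in male paclitaxel cords, against 1395 to 1595 in male vehicle cords. Of these 9, edgeR called 5 higher and 0 lower in males. For 7 muscle markers the median log2 fold change was 1.75 in males and -1.05 in females, with 0 of them called in either sex. The part of these measures in the Scn1a difference was not tested.

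Knockout of Chrna7 in myeloid cells went with no called difference in any channel member. Scn1a had 415.9 to 575.4 CPM with a median of 509.7 in 12 Chrna7-cKO cords, against 426.8 to 574 CPM with a median of 538.1 in 11 WT cords. The groups overlapped over nearly their whole range, and the log2 fold change was -0.04 with a 95% interval from -0.11 to 0.02. Over the 8 members the log2 fold changes ran from -0.0444 (Scn8a) to 0.0411 (Scn9a), and every edgeR adjusted p was 1. In this comparison 0 members were called, and 3 genes in all (0.0118%). At an unadjusted edgeR p under 0.05 there were 0 members and 852 genes (3.36%), and DESeq2 called 5 genes and 0 members. The widest interval among the members, that of Scn3a, ran from -0.12 to 0.13 on the log2 scale.

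Within each treatment no member was called for the knockout either. Under paclitaxel, with 1 gene called in all (0.00394%), the members' differences between Chrna7-cKO and WT ran from -0.0699 (Scn1a) to 0.0701 (Scn3b). Under vehicle, with 2 genes called (0.00788%), they ran from -0.0888 (Scn8a) to 0.144 (Scn9a). By edgeR 0 members were called in either, and 0 had an unadjusted p under 0.05, against 6.18% of tested genes under paclitaxel and 5.2% under vehicle.

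The shares of the subunits differed between treatments by at most 2.281 percentage points, and none passed the adjusted threshold with all 23 cords. Scn1a made up 52.28 ± 2.134% of the alpha sum in 11 paclitaxel cords and 54.5 ± 1.248% in 12 vehicle cords (SD). The difference of -2.227 percentage points had a two-sided permutation p of 0.00664 with 100000 resamples, and 0.05312 after Benjamini-Hochberg adjustment over 8 shares. Scn8a made up 34.13 ± 2.69% in paclitaxel cords and 31.84 ± 1.79% in vehicle cords, a difference of 2.281 percentage points (permutation p = 0.02432, adjusted 0.09728). With 1 cord left out, the adjusted permutation p of the Scn1a share ranged from 0.00656 to 0.103 and passed the threshold in 5 of 23 cases. These were the cases without WT female paclitaxel replicate 1 or 2, Chrna7-cKO female paclitaxel replicate 2, Chrna7-cKO male vehicle replicate 1 or Chrna7-cKO female vehicle replicate 3. That of the Scn8a share ranged from 0.0224 to 0.202 and passed in 2 cases, without WT female paclitaxel replicate 1 or 2. These 2 shares are parts of 1 sum, so a lower share of the first raises the other. The other 6 shares differed by -0.09822 to 0.1328 percentage points, with permutation p-values of 0.888 after adjustment. In males the Scn1a share was 49.55 to 52.66% in paclitaxel cords and 53.09 to 57.29% in vehicle cords, without overlap. In females it was 51.59 to 56.51% in paclitaxel cords and 53.19 to 55.11% in vehicle cords, with overlap. Between Chrna7-cKO and WT the mean Scn1a share was 53.47% and 53.41%, and all 8 permutation p-values were 0.998 after adjustment.

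Members differed in how they varied together from cord to cord. Over 23 cords, Pearson's r of log2 CPM was 0.78 between Scn1a and Scn2a, 0.788 between Scn2a and Scn3a and 0.794 between Scn8a and Scn4b. It was -0.711 between Scn3a and Scn4b and -0.653 between Scn8a and Scn9a. The neighbours Scn2b and Scn4b had an r of 0.213. These values are descriptions over cords that share treatment groups and a common scaling.

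Annotated starts of 2 such pairs differ in base composition. RefSeq windows of 300 bases around annotated starts on GRCm38.p6, from 250 bases before to 50 after, were matched for 6 of the 8 members. They are shown for Scn4b and Scn8a and for Scn1a and Scn2a, the pairs with the highest r among members that have a window. The Scn2a window shown is its second entry and lies inside the gene, which begins at chr2:65620771 on the plus strand. The Scn8a window shown also lies inside its gene, which begins at chr15:100869858 on the plus strand. Capitals mark each CG pair.
Scn4b, chr9:45138374-45138673, plus strand: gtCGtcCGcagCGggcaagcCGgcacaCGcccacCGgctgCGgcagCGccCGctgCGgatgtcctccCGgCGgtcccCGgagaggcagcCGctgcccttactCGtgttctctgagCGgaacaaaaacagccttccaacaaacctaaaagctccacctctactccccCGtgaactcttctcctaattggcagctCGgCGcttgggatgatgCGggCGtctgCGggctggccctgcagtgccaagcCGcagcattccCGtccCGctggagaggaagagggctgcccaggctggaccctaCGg
Scn8a, chr15:100870395-100870694, plus strand: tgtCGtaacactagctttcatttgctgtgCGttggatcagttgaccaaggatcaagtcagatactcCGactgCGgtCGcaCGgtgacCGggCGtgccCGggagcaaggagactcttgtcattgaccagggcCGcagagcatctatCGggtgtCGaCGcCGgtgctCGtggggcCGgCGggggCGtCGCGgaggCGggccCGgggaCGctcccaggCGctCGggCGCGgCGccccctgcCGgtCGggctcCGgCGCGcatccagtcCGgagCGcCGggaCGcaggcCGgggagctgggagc
Scn1a, chr2:66440788-66441087, minus strand: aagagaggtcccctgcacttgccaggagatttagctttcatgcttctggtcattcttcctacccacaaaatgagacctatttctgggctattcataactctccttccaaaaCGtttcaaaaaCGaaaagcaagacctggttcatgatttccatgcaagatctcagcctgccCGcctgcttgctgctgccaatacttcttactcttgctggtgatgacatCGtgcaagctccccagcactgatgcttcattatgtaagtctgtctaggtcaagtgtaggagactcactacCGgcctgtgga
Scn2a, chr2:65668436-65668735, plus strand: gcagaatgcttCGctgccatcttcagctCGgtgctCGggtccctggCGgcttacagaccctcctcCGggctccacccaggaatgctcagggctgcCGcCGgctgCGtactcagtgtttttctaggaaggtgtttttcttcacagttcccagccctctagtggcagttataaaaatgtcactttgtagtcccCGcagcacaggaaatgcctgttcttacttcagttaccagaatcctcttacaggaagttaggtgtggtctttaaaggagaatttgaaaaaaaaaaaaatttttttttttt
The Scn8a window held 38 CG pairs and the Scn4b window 26, while the Scn1a window held 5 and the Scn2a window 9, beside a median of 7 over 32851 RefSeq windows. The second Scn8a entry held 12. The other Scn2a entry, chr2:65620519-65620818 at the start of the gene, held 3, and the windows of Scn9a and Scn2b held 9 and 2. The GC box GGGCGG was absent on both strands from all windows of these 6 members and present in 35.7% of all windows. The TATA motif TATAAA, searched on both strands, was found in the Scn2a window shown and in no other of these windows, and in 13.6% of all windows. These counts describe letters in the windows and nothing about binding.

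The genes whose levels followed each member most closely were taken among 15869 genes with a mean of at least 1 CPM, by Pearson's r of log2 CPM over the 23 cords, as a description. For Scn1a they included Usp32 (0.96) and Dpp8 (0.9519), and for Scn2a they were Ppp1r9a (0.9194), Trpc5 (0.9171) and Nalcn (0.9081), the sodium leak channel. For Scn3a they were Cacna2d1 (0.9422), an auxiliary calcium channel subunit, Zfhx4 (0.9266) and Mme (0.9221). Scn8a was most like Syt2 (0.9226), a vesicle calcium sensor, Map1b (0.8727) and Pip4k2b (0.8496). Scn4b was most like Tmem127 (0.8426), Stk39 (0.8423) and again Syt2 (0.8378). Scn2b was most like Slitrk1 (0.8791), Cplx2 (0.8727) and Cap2 (0.8602), and Scn3b most like Syt1 (0.88), Rims3 (0.8673) and Sphkap (0.8597). Scn9a had the weakest of these likenesses, with Rfx7 (0.8323), Gm37928 (0.8287) and Prpf39 (0.8167).

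Of 9 other sodium channel genes, whose CPM values are given without a comparison between genes, Unc80, a subunit of the leak channel complex, averaged 448.7 CPM and Nalcn itself 136.8 CPM. The muscle channel Scn4a averaged 0.1191 CPM, Scn10a 0.07872 and Scn11a 0.1674 CPM. Paclitaxel over all cords called 0 of the 9. In males 1 of the 9 was called, Unc80, which fell (log2 fold change -0.16, SE 0.04, adjusted p = 0.0195 by edgeR), beside 6.69% of all tested genes called. Its level was 371.7 to 447.7 CPM in male paclitaxel cords, against 436.6 to 516.1 CPM in male vehicle cords. The call was lost without WT male paclitaxel replicate 2, Chrna7-cKO male paclitaxel replicate 3 or Chrna7-cKO male vehicle replicate 3 (adjusted p 0.0511, 0.0744 and 0.0853).

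Proteins that bind sodium channels or set their level were described with a list of 26 partner genes. For paclitaxel over all cords 0 of the 26 were called, with a median log2 fold change of -0.00283. The 3 with the smallest p were Rest, a repressor of neuronal genes including sodium channels (0.13, SE 0.04, edgeR adjusted p = 0.205), Ank3, the anchor of channels at the axon initial segment (-0.09, SE 0.03, adjusted p = 0.218), and Fgf12, an intracellular fibroblast growth factor homologue that binds the channel tail (-0.08, SE 0.03, adjusted p = 0.261). In WT they were the ubiquitin ligase Nedd4 (-0.14), Ank3 (-0.13) and the cell adhesion molecule Nrcam (-0.16), each with an edgeR adjusted p of 0.528. In Chrna7-cKO cords they were Dpysl2, which encodes the collapsin response mediator CRMP-2 (0.17, SE 0.04, edgeR adjusted p = 0.185), Fgf12 (-0.11, adjusted p = 0.25) and Rest (0.16, adjusted p = 0.257).

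In males 4 of the 26 partners were called by edgeR, 3 higher and 1 lower, beside 3.07% of all tested genes called higher and 3.62% lower. Fgf12 had 192.4 to 220.5 CPM in male paclitaxel cords, against 223 to 251.9 CPM in male vehicle cords, without overlap, and fell (log2 fold change -0.18, SE 0.04, adjusted p = 0.00625 by edgeR). Dpysl2 had 346.5 to 374.1 CPM in male paclitaxel cords, against 283.8 to 338.1 CPM in male vehicle cords, also without overlap, and rose (log2 fold change 0.18, SE 0.04, edgeR adjusted p = 0.0134). Rest (0.18, SE 0.05, edgeR adjusted p = 0.0342) and Fgf13, another channel-binding homologue (0.16, SE 0.05, adjusted p = 0.038), rose in the same cords. Separation of the male groups in either direction held for 2.34% of tested genes. Of the 26, the response in males minus that in females was called for Fgf12 (-0.21, SE 0.05, edgeR adjusted p = 0.0244) and Fgf13 (0.24, SE 0.07, adjusted p = 0.0384), beside 4.96% of all tested genes. Leaving out 1 cord at a time, these calls were lost in 5 of 23 cases for Fgf12 (adjusted p 0.00822 to 0.0861) and in 14 of 23 for Fgf13 (0.0211 to 0.0948). With all 24 libraries neither passed, at -0.448 for Fgf12 (adjusted p = 0.327) and with the sign turned at -0.789 for Fgf13 (adjusted p = 0.58). Leaving out each of the 23 cords in turn, the male call of Fgf12 held every time, while that of Dpysl2 was lost in 1 case (without Chrna7-cKO male vehicle replicate 3), that of Rest in 8 and that of Fgf13 in 11. All 4 were lost with WT female paclitaxel replicate 3 in the fit.

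In females the 3 partners with the smallest p were Nedd4 (-0.13), Ank3 (-0.10) and Bace1 (-0.10), a protease that cleaves beta subunits, with edgeR adjusted p-values of 0.332, 0.454 and 0.482. Knockout of Chrna7 gave 0 called genes among the 9 and the 26. Among the 3 with the smallest p over all cords were Rest (-0.09) and Fgf11 (0.06), each with an edgeR adjusted p of 1. Under paclitaxel they included Sptan1 (0.11) and Cntn2 (0.08), with a lowest edgeR adjusted p of 0.804. Under vehicle they were Nedd4 (-0.12), Tnr (-0.13) and Rest (-0.11), each with an edgeR adjusted p of 0.911. For the response in Chrna7-cKO minus that in WT they were Nedd4 (0.17), Sptan1 (0.20) and Dpysl2 (0.16), with a lowest edgeR adjusted p of 0.512. Between males and females they were Fgf14 (-0.10), Cntn1 (-0.08) and S100a10 (0.11), with a lowest edgeR adjusted p of 0.132.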

How the data were processed

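The authors deposited 1 table of whole-number counts per gene for 24 libraries. The submitters' processing notes name STAR, without a version, as aligner and featureCounts 1.6.2 as counter. The counts cover the exons of Ensembl GRCm38 release 96, summed by gene name, with no strand, read-pair or multimapping option, per the file headers. Reads of antisense or overlapping genes therefore cannot be told apart. Both mates of a pair may be counted, so total counts may exceed the number of read pairs. Among low gene counts, 34.4 to 37.3% per library were odd. The deposited exon length (the other column used) gave RPKM.

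The 8 members and all gene lists were chosen with earlier results of these data known, as was the decision to set WT female paclitaxel replicate 3 apart. Levels are CPM with TMM factors. edgeR 4.0.16 in R 4.3.3 (quasi-likelihood, robust, filterByExpr, 8 group means, no block) was fitted to 23 libraries, with Benjamini-Hochberg adjustment over 25372 genes and calls at an adjusted p under 0.05. There were 8 contrasts, and 3 more, within and between the sexes, were added after seeing the levels. Shares were tested by two-sided permutation (SciPy 1.17.1, 100000 resamples). Named genes were the members, every called gene of the 9 other channels and 26 partners, or the 3 with the smallest p where none was called, and some of these are not reported here. Each library is 1 mouse. Alternatives were all 24 libraries, RLE scaling, no filter, DESeq2 1.42.0, limma 3.58.1 with voom, a replicate block, only the groups compared, shares without length, and leaving out each cord. The fit for paclitaxel over all was tested on simulated counts, with changes larger than any fitted for the members there. That test does not cover changes as small as theirs or the contrasts within and between the sexes.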

Additional observations from a re-analysis of the deposited data

Results flagged for a closer look

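Of 32 sets of CPM values (8 members in 4 combinations of genotype and treatment), 2 held a cord far from the others by Dixon's criterion, which chance gives for about 1 set in 20. Scn2b was at 157 CPM in WT male paclitaxel replicate 1, against 130.1 to 136.3 CPM in the other WT paclitaxel cords. Scn3a was at 40.02 CPM in Chrna7-cKO male vehicle replicate 3, against 32.79 to 35.38 CPM in the other Chrna7-cKO vehicle cords. Outside the comparisons, WT female paclitaxel replicate 3 held Scn9a at 579.1 CPM and Scn3b at 105 CPM, above all 23 cords.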

How the results depend on the processing

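Each library held at least 88812295 counts, and the spread between 3 mice per group limits the precision: Scn9a, Scn3a and Scn3b had the widest 95% intervals. Single-gene results kept direction and side of the threshold in 751 of 812 alternatives and in 2727 of 2852 cases with 1 cord left out, with 37 and 76 reversals of sign; the cause of the other outcomes was not tested.

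With all 24 libraries, genes called were 0 for paclitaxel over all, 0 in Chrna7-cKO, 0 in males (0 members), 0 in females, 1 for knockout under vehicle, 0 under paclitaxel, 28 for sex and 0 for sex by treatment. Signs reversed for paclitaxel over all in Scn9a (0.855), Scn3b (0.158) and Fgf12 (0.0376), in WT in Scn3b (0.284), and in females in Scn3a (-0.165) and Scn3b (0.299). For knockout over all they reversed in Scn1a (0.035), Scn2a (0.0383), Scn8a (0.01), Scn9a (-0.895), Scn2b (0.0403), Scn3b (-0.184) and Scn4b (0.0174), and under paclitaxel in Scn1a (0.0897), Scn2a (0.137), Scn3a (0.133), Scn2b (0.139), Scn3b (-0.311) and Sptan1 (-0.135). For genotype by treatment they reversed in Scn1a (0.109), Scn3a (0.0649), Scn3b (-0.254) and Sptan1 (-0.0463). For sex they reversed in Scn1a (0.0136), Scn2a (0.0491), Scn3a (0.039), Scn9a (-0.812), Scn2b (0.0118), Scn3b (-0.185), Fgf14 (0.0199) and S100a10 (-0.461), and for sex by treatment in Scn2a (0.111), Scn3b (-0.283) and Fgf13 (-0.789). Share differences for paclitaxel became -4.68 points for Scn1a (permutation adjusted p = 0.0237), -0.148 for Scn3a, -0.381 for Scn2b and 0.965 for Scn3b, and for knockout 0.996 for Scn8a, -4.37 for Scn9a, 0.424 for Scn2b and -0.915 for Scn3b.

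Without the low-count filter, genes called were 338 for paclitaxel over all (2 members), 254 in WT, 470 in Chrna7-cKO (1 member), 371 in females, 99 for knockout over all, 111 under vehicle, 215 under paclitaxel, 366 for genotype by treatment, 749 for sex and 2181 for sex by treatment (1 member), with 4 members in males and Scn8a at -0.00148 for knockout under paclitaxel. DESeq2 called 158 for paclitaxel over all (1 member), 4 in WT, 126 in Chrna7-cKO (1 member), 2672 in males, 63 in females, 5 for knockout over all, 4 under vehicle, 3 under paclitaxel, 583 for sex and 2376 for sex by treatment. Deviations from group means had a median correlation of 0.0136 for the same replicate number (77 pairs, -0.31 to 0.351) and -0.0139 for other numbers. The same-number pairs were pooled across the split of library numbers given above. They therefore cannot show whether cords were paired within either side of it. With the replicate block, edgeR called 9 for paclitaxel over all, 63 in females, 0 for knockout under paclitaxel (1645 unadjusted; Scn2b at 9.27e-05) and 1891 for sex by treatment (1 member, Scn2b, adjusted p = 0.0417). With only the groups compared it called 3 in Chrna7-cKO, 824 in males, 7 in females, 1 for knockout under vehicle and 0 under paclitaxel (Scn8a at -0.000257), and limma voom called 0 in females (2426 unadjusted). Shares without length differed by -0.00366 for Scn3a with paclitaxel and -0.0108 for Scn4b with knockout.

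Leaving out 1 cord at a time, genes called ranged from 2 to 62 for paclitaxel over all (0 to 1 member), 0 to 4 in WT, 0 to 332 in Chrna7-cKO (0 to 1 member), 357 to 2841 in males (1 to 2 members), 0 to 10 in females, 3 to 5 for knockout over all, 1 to 3 under vehicle, 0 to 2 under paclitaxel, 0 to 1 for genotype by treatment, 65 to 324 for sex and 248 to 2419 for sex by treatment (0 to 1 member). Log2 fold changes that crossed 0 for paclitaxel over all were Scn2b (-0.0284 to 0.0137) and Scn3b (-0.0611 to 0.00161); in WT Scn3a (-0.0714 to 0.0622), Scn9a (-0.0437 to 0.0762) and Scn2b (-0.067 to 0.00211); in Chrna7-cKO Scn8a (-0.00791 to 0.0336), Scn2b (-0.0254 to 0.0571), Scn3b (-0.0224 to 0.0778) and Scn4b (-0.00188 to 0.0446). In males they were Scn3b (-0.0384 to 0.0834) and Scn4b (-0.0348 to 0.00916), in females Scn3a (-0.021 to 0.0525) and Scn9a (-0.0249 to 0.0961). For knockout over all they were Scn3a (-0.034 to 0.0328) and Scn3b (-0.0254 to 0.0321), under vehicle Scn1a (-0.0342 to 0.00764), and under paclitaxel Scn2a (-0.085 to 0.0254), Scn8a (-0.0207 to 0.0114), Scn9a (-0.119 to 0.00145) and Scn2b (-0.0554 to 0.0322). The others were Scn2a for genotype by treatment (-0.0253 to 0.0887) and sex by treatment (-0.102 to 0.00406) and Scn3b for sex (-0.0217 to 0.0391). Share differences for paclitaxel ranged from -2.65 to -1.95 (Scn1a), -0.205 to 0.0472 (Scn2a), -0.0414 to 0.107 (Scn3a), 1.78 to 2.72 (Scn8a), -0.0164 to 0.0667 (Scn9a), -0.0831 to 0.315 (Scn2b), -0.122 to 0.0638 (Scn3b) and -0.378 to 0.205 (Scn4b). For knockout they ranged from -0.323 to 0.373 (Scn1a), -0.135 to 0.105 (Scn2a), -0.641 to 0.304 (Scn8a), -0.294 to 0.0506 (Scn2b), -0.00866 to 0.135 (Scn3b) and -0.185 to 0.281 (Scn4b).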
